A study of Rattus norvegicus with 145 samples.

Results

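The nuclear lamina and envelope genes of rat liver were followed over daily gavage doses of acetamide, a food contaminant. By symbol, 10 genes were chosen: the lamins Lmna, Lmnb1 and Lmnb2, the lamin B receptor Lbr, Banf1, the LEM domain proteins Emd, Tmpo and Lemd3, and the SUN domain proteins Sun1 and Sun2. The count tables hold 9 of the 10 symbols among 17337 genes, and Sun2 was not analysed here.

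RNA-Seq counts of the liver came from Wistar rats in 29 groups of 5, which make up 5 data sets. Experiment A used males of the strain Hsd:WI, 9 to 10 weeks of age, dosed for 7 days and examined on day 8, with groups at 0, 30, 100, 300 and, as the highest, 1000 mg/kg/day (mkd). Experiment B used Crl:WI males and females, 8 to 10 weeks of age, given 0, 300, 500, 750, 1000 or 1500 mkd for 7 days (day 8) or 28 days (day 29). The vehicle was water in every group, controls received water alone, and the RNA came from the left liver lobe, so that all cell types of the lobe were measured together. The label of the control males of day 29 names the other experiment, and their title placed them here with the males of day 29.

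The nuclear lamina is a meshwork of intermediate filament proteins beneath the inner nuclear membrane. A-type lamins, lamin A and lamin C, are splice products of Lmna, and B-type lamins come from Lmnb1 and Lmnb2. Lbr and the LEM domain proteins are anchored in the inner membrane and tie lamina and chromatin together, in part through Banf1, a small DNA-binding protein, and SUN proteins link the lamina to the cytoskeleton. The envelope is taken apart and rebuilt at each cell division. In adult liver, hepatocytes rarely divide unless the organ is injured or stimulated.

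Promoters of the 10 genes were found in RefSeq (build GRCr8), and 3 of them are shown here, because the levels of Lbr and Lmnb2 went with those of the proliferation gene Mki67 between rats and the level of Banf1 went the other way. Each sequence is the 250 bases before the annotated transcription start, on the strand of the gene, and lies at chr13:96095710-96095959 (minus strand) for Lbr, chr7:9443058-9443307 (plus strand) for Lmnb2 and chr1:212103553-212103802 (minus strand) for Banf1. Capitals mark the letters CCAAT or TTTGAA, read on either strand.
Lbr: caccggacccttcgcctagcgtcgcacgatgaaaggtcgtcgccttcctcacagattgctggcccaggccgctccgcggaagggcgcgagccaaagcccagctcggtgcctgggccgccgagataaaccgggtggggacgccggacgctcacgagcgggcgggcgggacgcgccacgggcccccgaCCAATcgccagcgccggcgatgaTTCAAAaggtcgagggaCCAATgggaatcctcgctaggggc
Lmnb2: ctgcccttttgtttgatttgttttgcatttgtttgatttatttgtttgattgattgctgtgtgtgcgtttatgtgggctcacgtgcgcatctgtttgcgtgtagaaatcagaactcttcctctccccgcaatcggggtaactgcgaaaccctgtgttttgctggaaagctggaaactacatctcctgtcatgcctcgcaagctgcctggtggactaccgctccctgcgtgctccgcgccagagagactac
Banf1: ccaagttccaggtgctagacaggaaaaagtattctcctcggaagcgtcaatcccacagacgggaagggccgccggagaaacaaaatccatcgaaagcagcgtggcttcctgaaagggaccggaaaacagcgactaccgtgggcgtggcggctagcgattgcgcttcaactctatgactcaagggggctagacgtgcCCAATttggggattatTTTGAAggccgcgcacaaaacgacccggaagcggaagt
The motifs searched on both strands were CCAAT (the CCAAT box), TTTGAA (the cell cycle homology element CHR), TTCCCGC (a core of the E2F site), TATAAA (the TATA box) and GGGCGG (the GC box). Lbr holds CCAAT at 64 and 24 bases and TTTGAA at 41 bases before the start, and 2 overlapping GC boxes. Banf1 holds CCAAT at 54 bases and TTTGAA at 38 bases before it, and Lmnb2 holds 0 matches to the motifs searched. Among the 33469 promoters of the table, 34% hold CCAAT, 16.2% TTTGAA, 3.36% TTCCCGC, 12.9% TATAAA and 30.5% GGGCGG. A match describes letters in this window and is not a binding site. Lbr and Banf1 hold the same 2 kinds of capitals, as do the promoters of Lmnb1 and Sun2, which are not shown. Any part of these letters in the relation with Mki67 was not tested, and the share of all genes with such a relation was not counted.

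Between 15449716 and 39986531 reads fell on genes in each rat (median 28262376). Every measured member had at least 35 reads in every rat, and Lmna had 705 or more. Levels are given as CPM, reads of a gene relative to the library total after scaling by TMM over all rats, and differences as log2 fold changes from edgeR with their standard error (SE). The TMM factors of the rats ran from 0.733 to 1.76, so that CPM and raw reads can move apart. A level near the controls is meant after this scaling. Genes were not ranked against each other by level, since counts were not divided by transcript length. In liver tissue, fewer cells of a type and less RNA per cell cannot be told apart. Calls of up- or down-regulation needed an adjusted p of 0.05 or less and a change of 1.5-fold or more.

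At 1000 mkd in experiment A, Lmna, Lmnb1, Lmnb2 and Lbr were up-regulated. They were 4 of 9 members, where 14% of the 11323 genes tested were up-regulated. In males day 8 of experiment B at 1500 mkd, 1 of 9 members, Lmna, was called, against 0.142% of genes. In males day 29 at this dose it was Lmnb2 alone, again 1 of 9, against 3.16% of genes, and in females day 29 it was Lmnb1, Lmnb2 and Lbr, 3 of 9, against 9.55%. In females day 8 at 1500 mkd, edgeR called 0 of 9 members, as did the Wald test of DESeq2, and 0.522% of all genes were up-regulated. An unadjusted p under 0.05 was reached there by 2 of 9 members, against 14.7% of genes. No member was called as down-regulated at the highest dose in any data set.

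The median log2 fold change of the 9 members at the highest dose was 0.18 in experiment A, where that of all genes was 0.0009. In males of experiment B it was 0.12 on day 8 and 0.33 on day 29, beside -0.0039 and 0.07 over all genes. In females it was 0.05 and 0.19, beside -0.0038 and -0.0018. Of the 9 members, 8 had a log2 fold change above 0 in each data set but females day 8, where 5 had. In males day 29 this depended on 1 rat, treated replicate 3. Without it Lmnb1, Lbr, Tmpo and Sun1 fell below 0, at -0.44, -0.13, -0.09 and -0.10, and Lemd3 stayed below 0. Lmna, Lmnb2, Banf1 and Emd stayed above 0, at 0.24, 0.60, 0.14 and 0.08. The median of 0.33 was the value of Tmpo with this rat.

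Below the highest dose, edgeR and DESeq2 called 0 of 9 members at each of the 19 lower doses. In experiment A, 0 members had an unadjusted p under 0.05 at 30, 100 or 300 mkd, where 2.86, 2.05 and 1.93% of genes had one and 0% were up-regulated. At 300, 500, 750 and 1000 mkd, males day 8 had 0, 1, 2 and 2 such members, against 1.41, 3.32, 7.65 and 4.7% of genes, and 0% were up-regulated. Males day 29 had 0, 1, 2 and 3, against 5.66, 13.7, 22.9 and 26.2%, with 0, 0, 0.248 and 0.949% up-regulated.

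Females day 8 had 0, 1, 4 and 1 such members at these doses, against 2.57, 6.45, 14 and 13.5% of genes, with 0.0087, 0.0087, 0.0087 and 1.03% up-regulated. Females day 29 had 1, 1, 2 and 0, against 3.49, 11.4, 15.6 and 19.4%, with 0, 0.0349, 0.166 and 1.23% up-regulated. The lowest adjusted p of a member below the highest dose was 0.0838, for Lemd3 in males day 29. In the map of fold changes, the marked cells are in the upper 4 rows and in the last column of a data set.

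**Figure D1:**
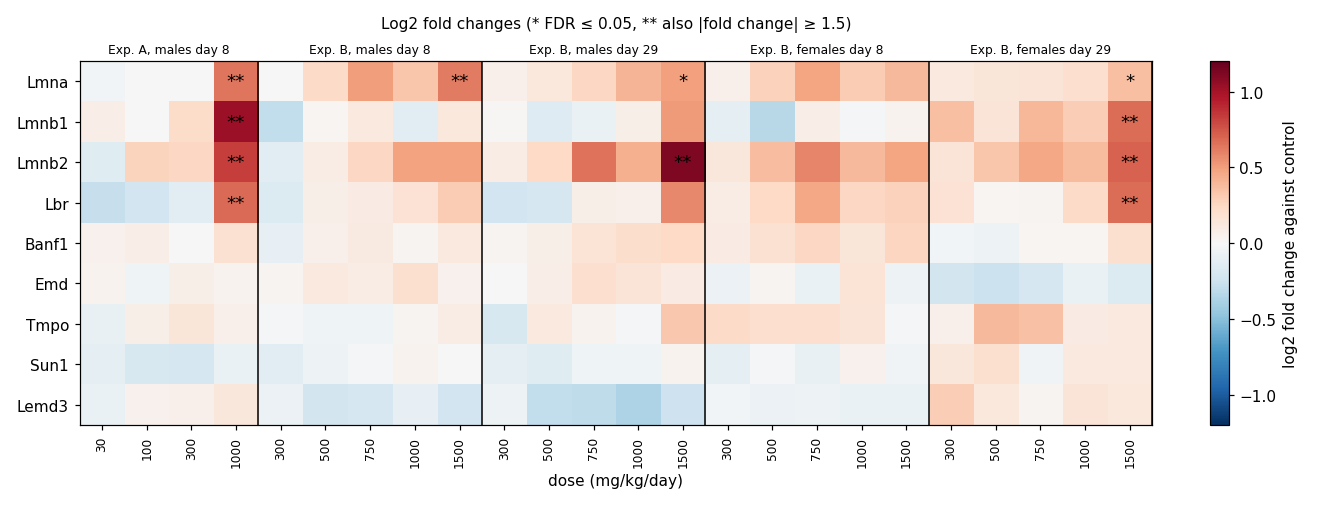
Log2 fold change of each measured gene (rows) at each dose (columns, mg/kg/day) against the vehicle control of its data set, from edgeR with 5 rats per group. Colour gives the log2 fold change, * marks an adjusted p of at most 0.05 and ** also a fold change of at least 1.5. All 9 ** cells are in the rows of Lmna, Lmnb1, Lmnb2 and Lbr and at the highest dose.

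Lmna encodes the A-type lamins. In the controls of experiment A it measured 72.8, 89.1, 69.5, 60.8 and 74.4 CPM, and at 1000 mkd 108, 141, 97.1, 102 and 115 CPM. The treated rats were all above the control rats, and at 30, 100 and 300 mkd the group means of 71.7, 72.5 and 73.0 CPM stayed by the control mean of 73.3 CPM. This was a log2 difference of 0.64 at the highest dose (SE 0.15, adjusted p = 0.00353). It fell under the 1.5-fold line without control replicate 4 (0.58, adjusted p = 0.0119) or treated replicate 2 (0.56, adjusted p = 0.0135).

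Lmna in males day 8 of experiment B measured 75.1, 73.0, 55.0, 58.0 and 43.5 CPM in the controls and 105, 87.8, 97.2, 92.3 and 86.6 CPM at 1500 mkd. The groups did not overlap, and at 750 mkd too all 5 rats, at 79.0 to 94.3 CPM, were above every control. For 750 mkd the share of all genes so separated was not counted. At 1500 mkd Lmna had a log2 fold change of 0.62 (SE 0.13, adjusted p = 0.0388). This call was lost in 13 of 20 alternative analyses, with adjusted p from 0.00209 to 0.253 over all of them. Among single rats, leaving out control replicate 3, 4 or 5 or treated replicate 1, 3 or 4 ended it, with log2 fold changes of 0.53 to 0.62.

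Lmna in females day 29 measured 70.5, 75.0, 70.8, 57.7 and 65.5 CPM in the controls and 82.6, 95.8, 87.9, 92.7 and 78.2 CPM at 1500 mkd. All 5 treated rats were above the controls, and the log2 fold change of 0.36 (SE 0.11, adjusted p = 0.0206) was a 1.29-fold change, under the fold criterion. On adjusted p alone, 11.3% of genes rose in females day 29 and 4.36% in males day 29, where Lmna was also the member added. The log2 fold change in those males was 0.49 (SE 0.15, adjusted p = 0.0447), from 55.6 to 80.6 CPM in the controls and 71.4 to 136 CPM at 1500 mkd, so that the groups overlapped. For females day 8 it was 0.39 (SE 0.20, adjusted p = 0.362), with controls at 48.8 to 75.8 CPM and treated rats at 56.5 to 109 CPM.

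**Figure D2:**
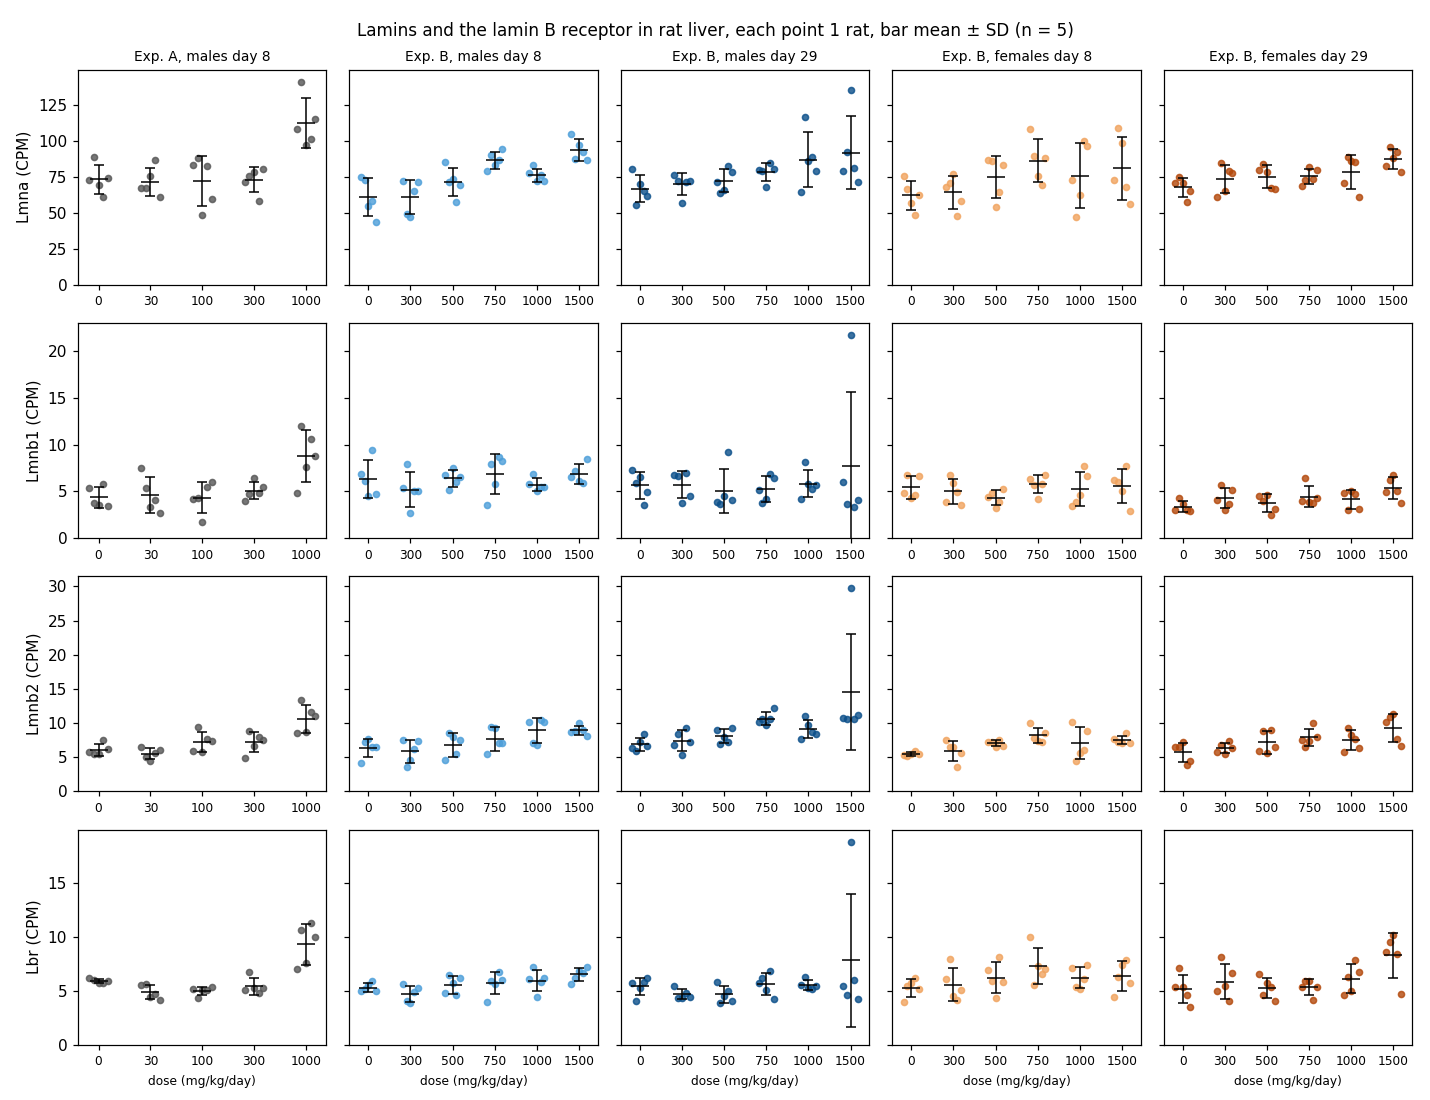
Level of Lmna, Lmnb1, Lmnb2 and Lbr (rows, CPM, linear axes from 0) against dose (mg/kg/day) in the 5 data sets (columns), with 1 point per rat and bars for the mean and SD of 5 rats. A single male of day 29 at 1500 mkd is far above its group for Lmnb1, Lmnb2 and Lbr, at 21.7, 29.7 and 18.8 CPM.

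Lmnb1 encodes lamin B1, a farnesylated lamin that stays bound to the membrane. In experiment A it measured 5.40, 3.74, 3.52, 5.79 and 3.40 CPM in the controls and 4.83, 12.0, 7.56, 10.6 and 8.75 CPM at 1000 mkd. Treated replicate 1 lay among the controls and the other 4 above them. This amounted to a log2 fold change of 1.02 (SE 0.29, adjusted p = 0.00999), and without replicate 2 of every group it was 0.85 (adjusted p = 0.107).

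Lmnb1 in females day 29 went from 2.97, 4.33, 3.60, 2.99 and 2.89 CPM in the controls to 4.96, 6.20, 6.78, 5.07 and 3.72 CPM at 1500 mkd. Of the treated rats, 4 of 5 were above every control. Its log2 fold change was 0.67 (SE 0.22, adjusted p = 0.030). Leaving out control replicate 1, 4 or 5 or treated replicate 2 or 3 ended the call, with log2 fold changes of 0.58 to 0.63 and adjusted p of 0.065 to 0.0922, and it was lost in 9 of 20 alternatives in all, with adjusted p up to 0.113. In the day 8 data sets of experiment B its log2 fold change was 0.12 in males (SE 0.23, adjusted p = 0.867) and 0.05 in females (SE 0.24, adjusted p = 0.957). All 5 treated males and 3 of the 5 treated females lay inside the range of the controls.

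Lmnb2 encodes lamin B2, the other B-type lamin. In experiment A it measured 5.75, 5.53, 5.44, 7.46 and 6.18 CPM in the controls and 8.56, 13.3, 8.64, 11.6 and 11.0 CPM at 1000 mkd. No treated rat overlapped with the controls. Lmnb2 had a log2 fold change of 0.83 (SE 0.17, adjusted p = 0.000966), and the call was kept in 20 of 20 alternatives, with log2 fold changes of 0.72 to 0.91.

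Lmnb2 in females day 29 measured 6.48, 6.54, 7.17, 3.80 and 4.51 CPM in the controls and 10.1, 10.8, 11.3, 7.60 and 6.60 CPM at 1500 mkd. Of the treated rats, 4 of 5 were above every control. This was a log2 fold change of 0.70 (SE 0.19, adjusted p = 0.00983), and without control replicate 4 it was 0.56 (adjusted p = 0.0402), under the fold criterion. The fit of control and 1500 mkd alone ended the calls of Lmnb1, Lmnb2 and Lbr in these females, at adjusted p of 0.0808, 0.0824 and 0.11.

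On day 8 in experiment B the Lmnb2 groups separated without being called. In females the controls were tightly spaced at 5.36, 5.14, 5.43, 5.87 and 5.48 CPM, and the rats at 1500 mkd had 7.68, 7.17, 7.09, 8.56 and 7.15 CPM. Every treated rat was above every control, also at 500 mkd (6.53 to 7.53 CPM) and 750 mkd (7.25 to 9.98 CPM), but at 1000 mkd 3 of 5 were. The share of all genes so separated at these lower doses was not counted. The log2 fold change at 1500 mkd was 0.47 (SE 0.17), with an unadjusted p of 0.0113 and an adjusted p of 0.171. In males the controls lay at 4.20 to 7.62 CPM and the rats at 1500 mkd at 8.18 to 10.1 CPM, with a log2 fold change of 0.48 (SE 0.20, adjusted p = 0.310).

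Counted over members, groups that did not overlap at the highest dose were those of Lmna, Lmnb2 and Lbr in experiment A (3 of 9, where 8.2% of all genes had all treated rats above the controls). They were those of Lmna and Lmnb2 in males day 8 (2 of 9, against 1.43%), of Lmnb2 in males day 29 (1 of 9, against 2.48%) and in females day 8 (1 of 9, against 1.62%), and of Lmna in females day 29 (1 of 9, against 3.57%). In the downward direction it was Lemd3 in males day 29 (1 of 9, against 4.66%).

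Lbr encodes the lamin B receptor, which is also a sterol reductase. In experiment A its controls were closely spaced, at 6.21, 6.00, 5.68, 5.75 and 5.93 CPM, and at 1000 mkd it measured 7.04, 10.6, 7.59, 11.3 and 9.96 CPM. All treated rats were above the controls, with a log2 fold change of 0.68 (SE 0.13, adjusted p = 0.000857), kept in 20 of 20 alternatives. Below the highest dose, the share of all genes with separated groups was not counted. At 30 and 100 mkd all 5 rats were below every control, with means of 4.88 and 4.99 CPM against 5.92 CPM, and 4 of 5 were at 300 mkd. At these doses its log2 fold changes ranged from -0.27 to -0.13, with adjusted p of 1.

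Lbr in females day 29 measured 5.30, 7.13, 5.31, 4.61 and 3.48 CPM in the controls and 8.62, 9.46, 10.1, 8.38 and 4.74 CPM at 1500 mkd. Treated replicate 5 lay within the control range. Here the log2 fold change was 0.67 (SE 0.21, adjusted p = 0.0236), and the call was lost without control replicate 4 or 5 or treated replicate 2 or 3, with log2 fold changes of 0.57 to 0.62 and adjusted p of 0.062 to 0.0767. It was also lost without replicate 1, 3 or 4 of every group, in 8 of 20 alternatives in all, and adjusted p over the 20 ran from 0.00368 to 0.11. On day 8 of experiment B, 4 of 5 males and 3 of 5 females at 1500 mkd were above every control, with log2 fold changes of 0.30 (SE 0.15, adjusted p = 0.384) and 0.27 (SE 0.20, adjusted p = 0.561).

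Among males day 29 at 1500 mkd, treated replicate 3 stood apart. Lmnb2 measured 10.7, 10.6, 29.7, 10.6 and 11.2 CPM there, against controls at 6.33, 5.87, 7.28, 8.40 and 6.63 CPM. The other 4 treated rats were also above every control, so that the call did not rest on the one rat. Its log2 fold change was 1.12 (SE 0.22, adjusted p = 0.00834) with it and 0.60 (SE 0.14, adjusted p = 0.013) without it. In the fit of control and 1500 mkd alone it was 1.07 (adjusted p = 0.0803).

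Lmnb1 and Lbr differed in this respect. Lmnb1 measured 6.02, 3.67, 21.7, 3.37 and 4.05 CPM at 1500 mkd, against 3.59 to 7.26 CPM in the controls, and its log2 fold change was 0.51 (adjusted p = 0.398) with treated replicate 3 and -0.44 (SE 0.28, adjusted p = 0.300) without it. Lbr measured 5.46, 4.64, 18.8, 6.01 and 4.26 CPM, against 4.07 to 6.13 CPM, and its log2 fold change went from 0.58 (adjusted p = 0.169) to -0.13 (SE 0.15, adjusted p = 0.622). Tmpo went from 0.33 (adjusted p = 0.241) to -0.09 (adjusted p = 0.663), with 81.9 CPM in this rat and 34.3 to 36.6 CPM in the others. Lmna had 136 CPM in it, and without it the log2 fold change was 0.24 (adjusted p = 0.233). The same rat carried 245 CPM of Mki67, the gene of the Ki67 antigen of dividing cells, where the other 4 rats had 3.15 to 14.4 CPM. The paper names this rat an outlier of Ki67 labelling and left it out of its benchmark dose modelling. The fits here keep it unless stated.

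Emd encodes emerin, a LEM domain protein of the inner membrane. In the controls of experiment A it measured 13.3, 15.3, 11.5, 16.1 and 14.9 CPM, and at 1000 mkd 14.2, 14.3, 15.4, 14.3 and 13.7 CPM, inside the control range. Before scaling, Emd had 282 to 489 reads in these controls and 476 to 750 reads at 1000 mkd. At the highest dose its log2 fold changes ranged from -0.16 in females day 29 (SE 0.14) to 0.10 in males day 29 (SE 0.13), with adjusted p of 0.462 or more.

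Tmpo encodes the lamina-associated polypeptides 2, whose isoforms the gene counts do not separate. Its log2 fold changes at the highest dose were 0.06 in experiment A, 0.09 and 0.33 in males of experiment B on days 8 and 29, and -0.03 and 0.11 in its females, with adjusted p of 0.241 or more. The controls of experiment A lay at 29.7 to 37.1 CPM and the rats at 1000 mkd at 33.6 to 37.5 CPM. At lower doses Tmpo reached a log2 fold change of at most 0.39, in females day 29, with adjusted p of 0.231 or more there.

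Lemd3 encodes MAN1, a LEM domain protein that also restrains SMAD signalling. Lemd3 in males day 29 measured 10.1, 10.2, 10.6, 10.3 and 9.18 CPM in the controls and 7.52, 8.18, 8.96, 8.76 and 8.23 CPM at 1500 mkd. Every treated rat was below every control, but the log2 fold change of -0.25 (SE 0.13) had an adjusted p of 0.225. At lower doses of this data set it reached -0.37, with adjusted p of 0.0838 or more. Males day 8 had -0.23 at 1500 mkd (SE 0.10, adjusted p = 0.285). In experiment A and in females day 29 the estimates were 0.14 and 0.12, with adjusted p of 0.463 and 0.571.

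Banf1 encodes the barrier-to-autointegration factor, which bridges DNA and LEM domain proteins when the envelope is rebuilt. Banf1 in males day 29 measured 31.4, 35.0, 37.2, 37.2 and 43.1 CPM in the controls and 42.7, 43.8, 45.6, 45.5 and 35.4 CPM at 1500 mkd. Of the treated rats, 3 of 5 were above every control. Its log2 fold changes at the highest dose were small and above 0 in all 5 data sets, from 0.12 in males day 8 to 0.26 in females day 8, with adjusted p of 0.132 or more.

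Sun1 encodes a SUN domain protein that anchors the nucleus to the cytoskeleton. At the highest dose its log2 fold changes ranged from -0.08 in experiment A (SE 0.15) to 0.12 in females day 29 (SE 0.16), with adjusted p of 0.632 or more. Controls of females day 29 spread from 5.42 to 10.6 CPM, and the rats at 1500 mkd lay inside this range at 7.90 to 8.98 CPM.

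**Figure D3:**
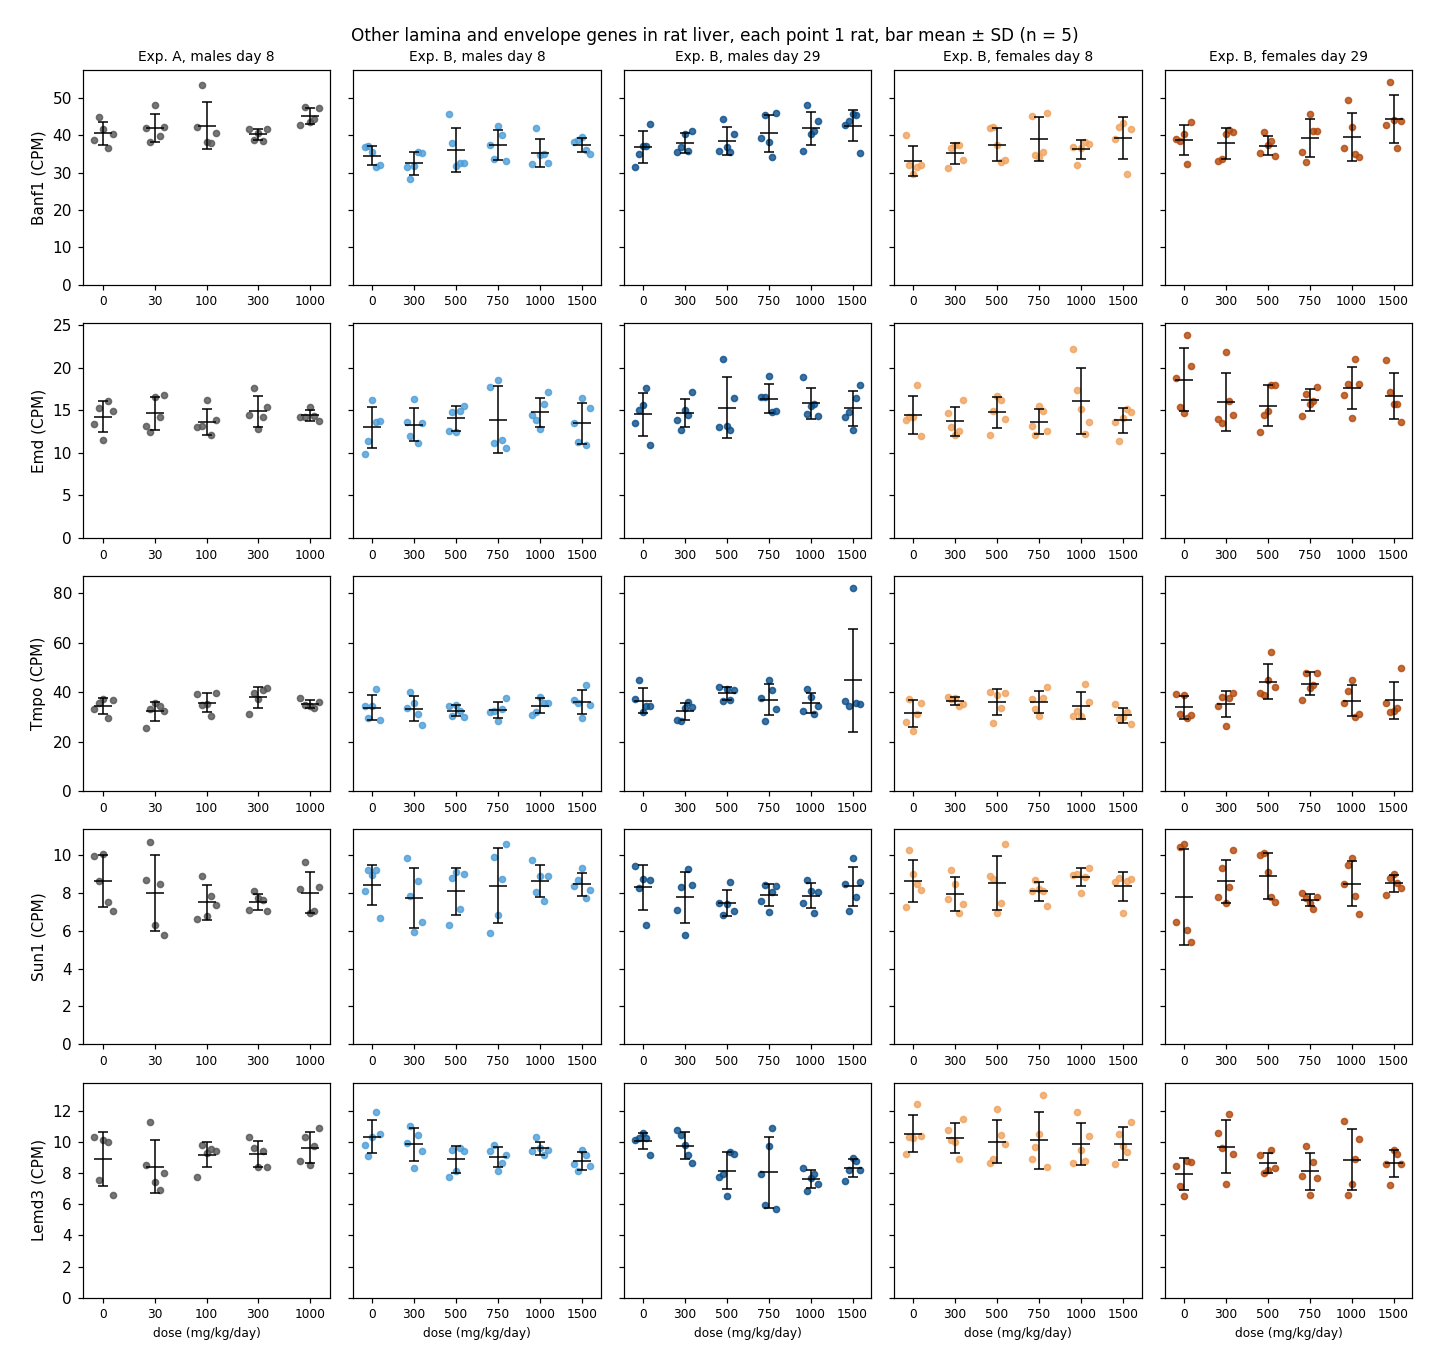
Level of Banf1, Emd, Tmpo, Sun1 and Lemd3 (rows, CPM, linear axes from 0) against dose (mg/kg/day) in the 5 data sets (columns), with 1 point per rat and bars for the mean and SD of 5 rats. The dose groups overlap in most panels, and 1 male of day 29 at 1500 mkd has 81.9 CPM of Tmpo.

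A trend over all doses was fitted for each data set as a slope of log2 expression per 1000 mkd and called at an adjusted p of at most 0.05. In experiment A, 4 of 9 members had a rising slope, against 23.5% of genes. Males of experiment B had 2 of 9 on day 8, against 1.98%, and 4 of 9 on day 29, against 13.9%. Females had 0 of 9 on day 8, against 3.76%, and 4 of 9 on day 29, against 15.4%. The 0 of females day 8 came from edgeR and from DESeq2, and 3 of 9 had an unadjusted p under 0.05 in edgeR. Lmna and Lmnb2 had a rising slope in 4 of 5 data sets each.

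For Lmna the slope was 0.67 (SE 0.12) in experiment A and, in experiment B, 0.44 (SE 0.08) for males day 8, 0.36 (SE 0.08) for males day 29 and 0.22 (SE 0.06) for females day 29, with adjusted p of 7.95e-05, 0.00398, 0.00388 and 0.00899. For Lmnb2 in the same order it was 0.83 (SE 0.14), 0.42 (SE 0.12), 0.73 (SE 0.13) and 0.44 (SE 0.11), with adjusted p of 3.01e-05, 0.0468, 0.000354 and 0.00254. The slopes of Lmna and Lmnb2 in females day 8 were 0.27 (SE 0.12, adjusted p = 0.179) and 0.31 (SE 0.11, adjusted p = 0.0883). The slope of Lmnb2 in males day 8 lost its call in 8 of 10 alternatives, among them each fit without 1 replicate number, with adjusted p up to 0.358.

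Lbr rose with dose in experiment A (0.85, SE 0.12, adjusted p = 3.84e-06) and females day 29 (0.40, SE 0.12, adjusted p = 0.0121), and Lmnb1 in the same data sets (1.03, SE 0.22, adjusted p = 0.000417, and 0.36, SE 0.13, adjusted p = 0.0309). In females day 29 the slope of Lbr lost its call in 3 of 10 alternatives and that of Lmnb1 in 4 of 10, and without the highest dose they were 0.14 (adjusted p = 0.662) and 0.26 (adjusted p = 0.438). Without the highest dose of experiment A, 0 members were called there and the slope of Lbr was -0.04. The slope of Lbr in males day 29 was 0.44 (SE 0.15, adjusted p = 0.0371), and it was 0.02 (adjusted p = 0.902) without replicate 3 of every group. The slope of Lmna in these males was 0.21 (adjusted p = 0.070) without replicate 3, and that of Banf1 went from 0.18 (SE 0.06, adjusted p = 0.0242) to 0.13 (adjusted p = 0.138).

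**Figure D4:**
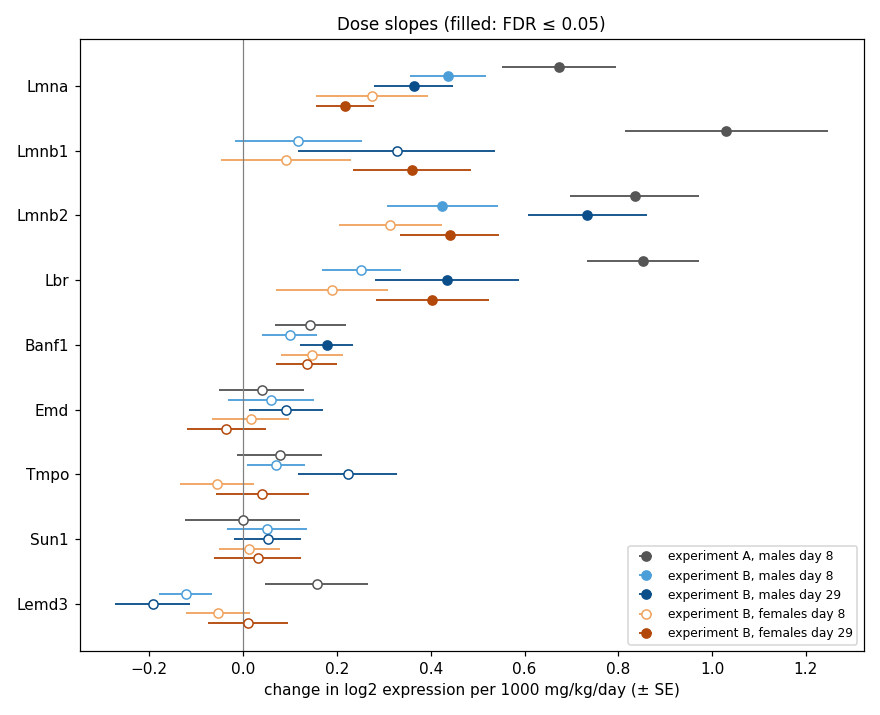
Change of log2 expression per 1000 mg/kg/day of each gene in each data set, with bars of 1 SE, from an edgeR fit over all doses. Filled points have an adjusted p of at most 0.05. Lmna and Lmnb2 have 4 filled points each, and those of Emd, Tmpo, Sun1 and Lemd3 are all open.

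Vehicle controls were compared between sexes and between days, to see whether the envelope genes differ without treatment. In edgeR 0 of 9 members differed in each of the 4 comparisons, as with DESeq2. Of all genes, 12% differed by sex on day 8, 18% by sex on day 29, 0.00872% by day in males and 1.77% by day in females. An unadjusted p under 0.05 was reached by 0, 3, 0 and 4 members in this order, against 23.4, 31.5, 10.5 and 19.4% of genes. The nearest to the threshold were those of day 29 females. The log2 difference, females minus males of that day, was 0.36 for Emd (SE 0.14, adjusted p = 0.0644), -0.34 for Lemd3 (SE 0.14, adjusted p = 0.0727) and -0.74 for Lmnb1 (SE 0.32, adjusted p = 0.102). Without replicate 3 of both groups, 1 member passed.

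Between control females, day 29 minus day 8, the log2 difference was -0.40 for Lemd3 (SE 0.13, adjusted p = 0.0818), -0.68 for Lmnb1 (SE 0.23, adjusted p = 0.0926) and 0.37 for Emd (SE 0.14, adjusted p = 0.131), and none of them passed. Lmnb1 measured 2.89 to 4.33 CPM in these controls and 4.26 to 6.78 CPM in those of day 8, so that the level reached at 1500 mkd on day 29, 3.72 to 6.78 CPM, lay across the range of untreated females of day 8.

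Whether the response to 1500 mkd differed by sex or by duration was tested as an interaction. It was called for 0 of 9 members in the 4 tests, by edgeR and by DESeq2, where 0, 0.0688, 0 and 0.00858% of genes passed for sex on day 8, sex on day 29, duration in males and duration in females. An unadjusted p under 0.05 in edgeR was reached by 0, 1, 0 and 0 members, against 4.58, 16.8, 4.69 and 8% of genes. The member was Lemd3 by sex on day 29, females minus males (0.40, SE 0.19, adjusted p = 0.284). The 95% intervals were wide. For Lmnb2 by duration in males the difference, day 29 minus day 8, was 0.61 (95% interval -0.01 to 1.22), and for Lmnb1 in females it was 0.62 (-0.03 to 1.28). For Lmna they ran from -0.72 to 0.24 for sex on day 8, females minus males, and from -0.47 to 0.27 on day 29.

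Males of day 8 were given 1000 mkd in both experiments, and the responses were compared by the same kind of test. The strain label, the age range and the experiment changed together and cannot be told apart. Lmnb1 responded more in experiment A, by 1.14 on the log2 scale (SE 0.37, adjusted p = 0.0469), the 1 of 9 members that passed, where 7.48% of genes did. In experiment B, Lmnb1 measured 5.72 ± 0.695 CPM (SD, n = 5) at 1000 mkd and 6.31 ± 2.01 CPM in the controls, and in experiment A 8.74 ± 2.76 and 4.37 ± 1.14 CPM. The call was lost in 4 of 9 alternatives, namely without a filter on low counts and without replicate 2, 4 or 5 of every group, with adjusted p up to 0.275. The difference was 0.49 for Lbr (SE 0.18, adjusted p = 0.0861), 0.34 for Lmnb2 (SE 0.26, adjusted p = 0.453) and 0.30 for Lmna (SE 0.20, adjusted p = 0.353).

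Mki67, the usual transcript marker of cycling cells, rose at the highest dose by 2.03 on the log2 scale in experiment A (SE 0.49, adjusted p = 0.00368). Males day 29 had 3.47 (SE 0.73, adjusted p = 0.00938), and 0.90 without treated replicate 3 (adjusted p = 0.104). Females had 2.05 on day 8 (SE 0.49, adjusted p = 0.0422) and 2.61 on day 29 (SE 0.35, adjusted p = 5.26e-05), and males day 8 had 1.62 (SE 0.45, adjusted p = 0.0913). Mki67 in females day 29 went from 4.19, 4.23, 4.91, 4.03 and 6.02 CPM to 32.7, 30.0, 36.7, 33.6 and 9.60 CPM. Replicate 5, the treated female with the least Mki67, was also the one with the least Lmnb1, Lmnb2 and Lbr of its group. The same rat had the most Tmpo, at 49.8 CPM against 32.1 to 35.6 CPM in the others.

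To ask whether rats of the same dose group that differed in Mki67 also differed in the envelope genes, log2 CPM was centred on the mean of each group, and the rats of all 29 groups were pooled. P-values are two-sided, from 100000 permutations within groups, and adjusted over the 9 members. How many of all genes pass this test was not counted, so the relation is not shown to be particular to the members. Lbr went with Mki67 at Pearson's r = 0.66 and Spearman's rho = 0.57 (permutation p = 1e-05 for each, the smallest possible, adjusted p = 4.5e-05). Lmnb2 had r = 0.50 and rho = 0.42 (permutation p = 1e-05 and adjusted p = 4.5e-05 for each). Lmnb1 had r = 0.38 and rho = 0.28 (permutation p = 0.00195, adjusted p = 0.00585 for each), and Tmpo r = 0.33 and rho = 0.22 (permutation p = 0.018 and 0.0127, adjusted p = 0.0325 and 0.0228).

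Banf1 went the other way, at r = -0.23 and rho = -0.27 (permutation p = 0.0129 and 0.00327, adjusted p = 0.0291 and 0.00736). For Lmna r was 0.21 and rho 0.16 (permutation p = 0.0507 and 0.0866, adjusted p = 0.076 and 0.13). For Emd, Sun1 and Lemd3, r lay between 0.04 and 0.10, with adjusted p of 0.33 or more. The points share libraries and depth, since both values of a rat come from the same counts.

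The 2 rats farthest from the median of Mki67 were replicates 3 and 5 of males day 29 at 1500 mkd, at 3.81 and -2.44 on the centred log2 scale. Without them r was 0.54 for Lbr, 0.41 for Lmnb2, 0.23 for Lmnb1 and -0.35 for Banf1, with adjusted p of 0.0267 or less, and 0.14 for Tmpo (adjusted p = 0.188). Spearman's rho of Tmpo was 0.19 without them (adjusted p = 0.0663), beside 0.22 with them. Within data sets, r of Lbr was 0.46 in experiment A (adjusted p = 0.0943). Males of experiment B had 0.48 on day 8 (adjusted p = 0.0316) and 0.91 on day 29 (adjusted p = 0.00045), and its females 0.76 (adjusted p = 0.0009) and 0.45 (adjusted p = 0.345).

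For Lmnb2 the values within data sets, in the same order, were 0.34, 0.51, 0.75, 0.53 and 0.23, with adjusted p of 0.417, 0.0316, 0.0377, 0.0115 and 0.455. Without the 2 rats, r in males day 29 was 0.69 for Lbr (adjusted p = 0.0036), 0.54 for Lmna (adjusted p = 0.0243) and 0.42 for Lmnb2 (adjusted p = 0.125). For Lmnb1, r was 0.05, 0.12, 0.74, 0.34 and 0.33 within data sets, and only the value of males day 29 passed (adjusted p = 0.0295, and 0.0817 without the 2 rats). Banf1 had -0.49, -0.63, 0.05, -0.12 and -0.15, with adjusted p of 0.0157 in males day 8 and 0.0943 or more elsewhere. Without the 2 rats, r of Banf1 in males day 29 was -0.53 (adjusted p = 0.0343). By Spearman's rho, Lbr and Lmnb2 did not pass in males day 8 (0.43 and 0.45, adjusted p = 0.0664 for each), while Banf1 did (-0.62, adjusted p = 0.00585). With all rats of males day 29, r was 0.73 for Lmna (adjusted p = 0.00135) and -0.42 for Emd (adjusted p = 0.0326). Their rho was 0.59 (adjusted p = 0.0124) and -0.38 (adjusted p = 0.0822).

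**Figure D5:**
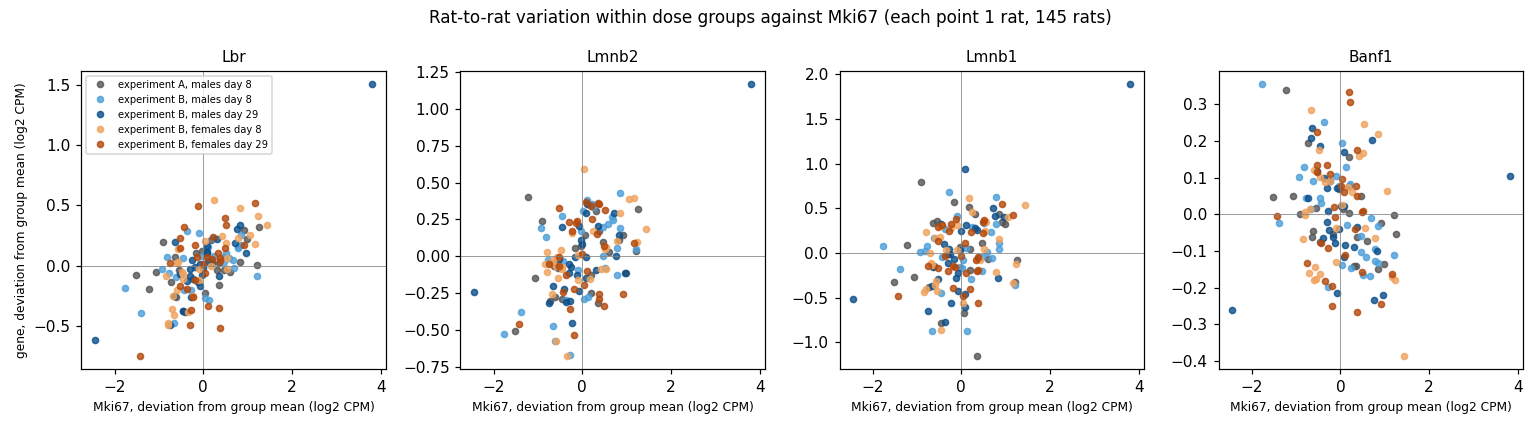
Level of Lbr, Lmnb2, Lmnb1 and Banf1 (y axes, log2 CPM as deviation from the mean of the dose group) against that of Mki67 (x axes, same scale), with 1 point per rat, coloured by data set. The point at 3.81 is treated replicate 3 of males day 29, and Lbr follows Mki67 most closely at r = 0.66.

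Among 11065 genes, the 3 whose within-group variation over all rats was most like that of each member were listed by Pearson's r, as a description with no test. For Lmnb2 they were Foxm1 (r = 0.72), H2afx (0.72) and Incenp (0.67), a transcription factor of mitotic genes, a histone variant and a subunit of the chromosomal passenger complex. For Lbr they were Incenp (0.75), Tubb5 (0.74) and Unc5b (0.73). For Tmpo they were Ezh2 (0.65), Haus3 (0.60) and G2e3 (0.59), and for Lmnb1 Rab11fip4 (0.65), Dnmt1 (0.63) and Zfp217 (0.63). For Lmna they were Reep4 (0.68), Syt2 (0.63) and Bcl2l12 (0.63). Treated replicate 3 of males day 29 was kept in these lists, and how far they rest on it was not examined.

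For Emd, Sun1, Lemd3 and Banf1, the genes most alike were others. Emd was most like Rnf185 (r = 0.79), Tsc22d3 (0.73) and Insig1 (0.73), and Sun1 most like Plec (0.72), Caskin2 (0.72) and Mum1 (0.71). Lemd3 was most like Cdk12 (0.75), Lats1 (0.75) and Secisbp2l (0.74), and Banf1 most like Ccdc124 (0.68), Mvb12a (0.68) and Nosip (0.65). Between members, r was 0.52 for Lmnb2 and Lbr, 0.50 for Lmna and Lmnb1, -0.51 for Lmnb1 and Emd and -0.44 for Banf1 and Lemd3. Within single data sets these pairs ran from 0.26 to 0.74, 0.30 to 0.74, -0.65 to -0.43 and -0.58 to -0.16. Treated replicate 3 of males day 29 was kept here too.

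Other genes of the envelope were taken from 6 lists, which cover further inner membrane proteins, the LINC complex, lamin processing enzymes, the nuclear pore, envelope breakdown and reassembly, and heterochromatin proteins bound at the lamina. Of 75 such genes in the tables, 72 were tested, the missing ones being Syne4, Sun5 and Spag4 of the LINC complex. At the highest dose 9 of 72 rose and 0 fell in experiment A, where 14% of all genes rose and 7.45% fell. In males of experiment B 0 changed on day 8, where 0.142% of genes rose, and 6 rose and 0 fell on day 29, where 3.16% rose. In its females 1 rose and 0 fell on day 8, where 0.522% rose, and 5 rose while 1 fell on day 29, where 9.55% rose and 3.54% fell. Their median log2 fold change was 0.11, 0.02, 0.10, 0.06 and 0.11 in this order. Treated replicate 3 of males day 29 was kept in these counts, and how far they rest on it was not examined.

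Among genes of breakdown and reassembly, mitotic kinases and a cyclin rose most. Plk1, a mitotic kinase, rose from 0.61 to 2.68 CPM in the controls of experiment A to 4.56 to 11.3 CPM at 1000 mkd (log2 fold change 2.29, SE 0.43, adjusted p = 0.000616), with no overlap. Of all genes, 8.2% had all treated rats above every control there. In the same comparison Ccnb1 rose by 1.89 (SE 0.55, adjusted p = 0.0129), with 5 of 5 treated rats above every control. Cdk1 rose by 1.66 (SE 0.62, adjusted p = 0.044), but with 1 of 5 above. Cdk1, which phosphorylates lamins at the start of mitosis, rose by 3.23 on the log2 scale in females day 29 (SE 0.48, adjusted p = 9.04e-05), and its cyclin Ccnb1 by 3.02 (SE 0.46, adjusted p = 0.000125). For both, all 5 treated rats were above every control, against 3.57% of all genes. Of the list's 22 genes, 3 rose in experiment A (14% of all genes), 0 and 4 in males of experiment B on days 8 and 29 (0.142 and 3.16%), and 1 and 3 in its females (0.522 and 9.55%). The fourth in males day 29 was Vrk1 (0.80, SE 0.21, adjusted p = 0.0245), a kinase that phosphorylates Banf1, and Chmp4c of the membrane-sealing ESCRT machinery fell in females day 29 (-0.72, SE 0.19, adjusted p = 0.00966). Both were named after their values were seen. In males day 29, 4 of 5 treated rats were above every control for Ccnb1, Cdk1 and Plk1. The treated rats there ranged from 1.46 to 138 CPM, 1.38 to 112 CPM and 1.19 to 61.2 CPM. How far the calls of that data set rest on treated replicate 3 was not examined.

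Among 26 nuclear pore genes, 3 rose in experiment A, where 14% of all genes did, and 1 each in males and females of day 29, where 3.16 and 9.55% did. In experiment A these were the scaffold subunits Nup205 (log2 fold change 0.75, SE 0.17, adjusted p = 0.00244) and Nup107 (0.73, SE 0.19, adjusted p = 0.00608) and Aaas (0.59, SE 0.12, adjusted p = 0.0011), with every treated rat above every control. Of all genes, 8.2% were so separated in experiment A. Aaas also rose in males day 29 (0.72, SE 0.20, adjusted p = 0.0315), and the membrane-spanning Nup210 in females day 29 (0.85, SE 0.15, adjusted p = 0.000512). The heterochromatin list had 1 of 9 genes up, the histone methyltransferase Suv39h1, in experiment A (0.84, SE 0.15, adjusted p = 0.000415), males day 29 (1.02, SE 0.28, adjusted p = 0.0276) and females day 29 (0.77, SE 0.17, adjusted p = 0.00313). Of 9 further inner membrane proteins, 2 rose in experiment A, beside the 14% of all genes, Tmem43 (0.80, SE 0.17, adjusted p = 0.00141) and Nrm (0.67, SE 0.20, adjusted p = 0.0133). Of the 5 lamin processing enzymes and Syne3, 0 passed both criteria in any data set. In males day 29 the treated rats spread widely. Suv39h1 lay at 6.22 to 28.2 CPM, with 3 of 5 rats above every control. Aaas lay at 9.29 to 24.8 CPM, with 5 of 5 above, against 2.48% of all genes. How far these 2 calls rest on treated replicate 3 was not examined.

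Markers of other liver cells changed in the 2 data sets with the most members called. At 1000 mkd in experiment A, where 14% of all genes rose and 7.45% fell, all 10 tested of 11 T and NK cell markers rose (median log2 fold change 1.54), and the summed level of the 11 went from 9.54 to 12.1 CPM in the controls to 13.1 to 40.0 CPM. Of the macrophage markers 7 of 11 rose, with sums of 668 to 2001 CPM and 1652 to 2908 CPM, of the endothelial markers 4 of 7, and of the stellate markers 1 of 8. Of the hepatocyte markers 4 of 10 fell, and their sums went from 286081 to 379968 CPM to 92024 to 278937 CPM, with the mean at 0.587 of the control mean and 5 of 5 treated rats below every control.

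Females day 29 at 1500 mkd, where 9.55% of genes rose and 3.54% fell, had 3 of 8 T and NK cell markers raised, with sums of 8.08 to 17.4 CPM in the controls and 16.2 to 25.8 CPM in treated rats. Also 4 of 11 macrophage, 2 of 7 endothelial, 2 of 8 stellate and 1 of 4 cholangiocyte markers rose, while 3 of 10 hepatocyte markers fell and 1 rose. The hepatocyte sums went from 194357 to 387449 CPM to 96093 to 194795 CPM, with 4 of 5 treated rats below every control. At the highest dose 0 markers of these lists were called in the other 3 data sets, but some of their sums moved. In males day 29 the cholangiocyte sum went from 8.88 to 17.3 CPM to 18.1 to 31.4 CPM, and 5 of 5 treated rats were above every control. In females day 8 the hepatocyte sum went from 200176 to 273875 CPM to 174320 to 225853 CPM, and 4 of 5 treated rats were below every control, as they were for the B cell sum. In males of days 8 and 29, 2 of 5 treated rats were below every control in the hepatocyte sum. The B cell list had 0 genes called, and of neutrophil and erythroid markers 2 of 3 and 2 of 5 fell in experiment A, and 1 of 3 rose and 3 of 5 fell in females day 29. The part of these cells in the changes of the lamina genes was not tested.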

How the data were processed

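The authors trimmed reads with Trimmomatic, aligned them to the rat genome (UCSC rn6) with Bowtie2, counted them per gene with HTSeq and deposited these raw counts, unnormalized, for 17337 genes listed by symbol. Tool versions and the strand setting of the count are not given in the sources used here, so that reads of genes overlapping on opposite strands may not have been told apart. Summary lines of reads on no gene, 35.5 to 67.1% of the deposited counts of a rat where a table holds them, were left out.

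edgeR 4.0.16 in R 4.3.3 was used for a quasi-likelihood test on the counts per data set with TMM normalization and its filter on low counts, all groups in a single fit, over all genes kept (11279 to 11497). Adjusted p are Benjamini-Hochberg values from this test unless a permutation test or DESeq2 is named. SE is the log2 fold change divided by the root of F, and 95% intervals use the t quantile at the degrees of freedom of the test. A slope on dose and interactions of dose with sex, duration or experiment used the same test. Correlations used log2 CPM with a prior count of 2. Alternatives were DESeq2 1.42.0 (Wald test, size factors), no filter, FDR alone, a replicate block, only control and tested dose, doses as ranks, no highest dose, a prior count of 0.5, and rats or replicate numbers left out. One alternative was added after seeing the data, the correlation in males day 29 without 2 rats. The fits were tested on simulated data.

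The genes and lists were chosen with earlier results of these data known. All members and Mki67 are named, and of other envelope genes the 3 with the largest fold change per list and data set among those called at the highest dose. Rats were housed 2 to a cage, and which rats shared a cage, litter or sequencing batch is not given in the sources used here. Replicate numbers run from 1 to 5 within a group. In experiment B they are those of the titles, and in experiment A they follow accession order and differ from the numbers in the titles at 100, 300 and 1000 mkd. Of the per-sample columns, all were used.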

Additional observations from a re-analysis of the deposited data

Results flagged for a closer look

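Within groups of 5 rats, Dixon's test at the 95% level marked a single rat for 16 of 261 gene and group combinations, in 8 of the 9 genes. Chance marks about 1 in 20 groups. Of these, 4 were values of the same rat, treated replicate 3 of males day 29 at 1500 mkd. Its 21.7 CPM of Lmnb1 stood against 3.37 to 6.02 CPM in the other 4 rats, its 29.7 CPM of Lmnb2 against 10.6 to 11.2 CPM, its 18.8 CPM of Lbr against 4.26 to 6.01 CPM and its 81.9 CPM of Tmpo against 34.3 to 36.6 CPM.

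In males day 29, Lmna was low in replicate 3 at 300 mkd (57.1 CPM, others 71.7 to 76.5), Lmnb1 high in replicate 4 at 500 mkd (9.15, others 3.65 to 4.50) and Banf1 low in replicate 5 at 1500 mkd (35.4, others 42.7 to 45.6). In females day 29, Lmnb1 was high in replicate 2 at 750 mkd (6.39, others 3.76 to 4.24) and Tmpo in replicate 5 at 1500 mkd (49.8, others 32.1 to 35.6). In females day 8, Banf1 was high in control replicate 1 (40.0, others 29.8 to 32.0) and low in replicate 2 at 1000 mkd (32.0, others 36.6 to 38.1), and Sun1 was low in replicate 3 at 1500 mkd (6.95, others 8.54 to 8.79). In males day 8, Banf1 was high in replicate 2 at 1000 mkd (41.9, others 32.4 to 34.9). In experiment A, Lbr was high in replicate 2 at 300 mkd (6.69, others 4.78 to 5.22), Banf1 in replicate 2 at 100 mkd (53.4, others 38.0 to 42.3), and Lemd3 low in replicate 1 at 100 mkd (7.78, others 9.28 to 9.83).

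The response of Lmnb1 to 1000 mkd in males day 8 was larger in experiment A than in experiment B, by 1.14 on the log2 scale (adjusted p = 0.0469, interaction in edgeR).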

How the results depend on the processing

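Counts of members called were recomputed under 458 alternatives of 39 results, of which 408 stayed within 1.5 times. Results that began at a count of 0, such as those of the lower doses, had no call to lose. A count that went from 4 to 3 was taken as within 1.5 times. Losses for single genes are given with each gene, such as 13 of 20 alternatives for Lmna at 1500 mkd in males day 8. When the fit held no other dose than control and the one tested, the count at 1500 mkd was 0 in females day 29 and in males of both days. Without a filter on low counts it was 0 in males day 8, where 1 slope was left, and 0 interactions with experiment were left. By FDR alone, 2 members were called in males day 29 at 1500 mkd. Without the highest dose, 0 slopes were called in experiment A, in females day 29 and in males day 8, and the slope of Lbr in experiment A turned to -0.04. Leaving out a rat or a replicate number gave 0 to 1 members called at 1500 mkd in males day 8, 0 to 3 in females day 29, slopes of 0 to 1 members in males day 8, 1 to 4 in males day 29 and 1 to 4 in females day 29, 0 to 1 differing between control sexes on day 29 and 0 to 2 interactions with experiment. Within data sets, 0 (experiment A), 3 (males day 8), 2 (females day 8) and 0 (females day 29) members were correlated with Mki67 by Pearson's r, and 3 in males day 29 without the 2 rats. The share of all genes so correlated was not counted. Except where named, the cause was not tested.

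With the replicate number as a block, 1 slope was called in males day 8 and 3 in males day 29, and no other count changed. Replicate numbers are names only. Rats of different groups with the same number had a median correlation of their deviations of -0.025 to 0.026, and 2 to 6 rats of a data set were closest to their own number. Depth limits Lmnb1 most, with 35 reads in the lowest rat.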
